A study of Mus musculus with 6 samples.

Results

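The genes of oxidative phosphorylation were followed across CD45+ cells from the digested joints of arthritic mice. Members were chosen by symbol alone: every gene of the table that starts with Nduf, Uqcr, Atp5, Cox4 to Cox8 or mt-, together with Sdha, Sdhb, Sdhc and Sdhd. This gave 103 of 20394 genes, of which 90 are nuclear and 13 are encoded by the mitochondrial genome. All C57BL/6 mice, bought at 8 weeks of age, carried antigen-induced arthritis (AIA): they were immunised with 10 µg of methylated bovine serum albumin in Freund's adjuvant, challenged with 100 µg of the same antigen in the joint on day 21, and then given PBS as vehicle (2 samples) or 300 µg of the peptide PEPITEM (4 samples), with joints taken 3 days after challenge. CD45+ cells of the digested joints were sorted and their 3′ transcript ends were counted as unique molecular identifiers (UMIs, 1 for each captured transcript). The paper calls these cells synovial. They include granulocyte precursors and cycling B lineage cells, and which tissue of the joint each class came from was not tested. The 32953 cells carry library numbers 1 to 6, which none of the sources used here ties to a treatment. The table was therefore handled as 1 pooled sample, vehicle and PEPITEM were not compared, and no test was made. Values are given for all cells of a class together. Where a range is given, it runs from the lowest to the highest library with at least 20 cells of the class. Such libraries numbered 5 for cycling neutrophils and for mast cells, 2 for fibroblasts and 1 for inflammatory macrophages, and 6 for the other classes.

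Oxidative phosphorylation is the last stage of respiration. Complex I (NADH dehydrogenase) and complex II (succinate dehydrogenase, also an enzyme of the citric acid cycle) feed electrons into the inner mitochondrial membrane, complex III passes them to cytochrome c, complex IV (cytochrome c oxidase) hands them to oxygen, and complex V (ATP synthase) uses the proton gradient to make ATP. Nearly all subunits are encoded in the nucleus and imported, while a small core is transcribed inside the organelle from long polycistronic RNAs, so that the complexes are built from both genomes. Complex II has nuclear subunits only. Mature neutrophils are known as cells with few mitochondria that rely on glycolysis, and tissue macrophages as cells rich in them.

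By complex, the nuclear members comprised 36 subunits of complex I, 4 of complex II, 8 of complex III, 17 of complex IV and 15 of complex V. A further 7 were complex I assembly factors (Ndufaf genes). Cox7a2l is a supercomplex assembly factor. Atp5s and Atp5sl met the rule by their symbols and were not counted as subunits of complex V. The mt- members were 7 subunits of complex I (mt-Nd1 to mt-Nd6 and mt-Nd4l), mt-Cytb of complex III, mt-Co1, mt-Co2 and mt-Co3 of complex IV, and mt-Atp6 and mt-Atp8 of complex V. Of the 103 members, 101 had a single position in GENCODE M21 (GRCm38), and the nuclear ones lay on 19 chromosomes.

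The promoters of 72 of the 90 nuclear members were found in the RefSeq table (GRCm38.p6), from 250 bases before to 50 bases after the start. Motifs of factors known to control this gene set were searched as fixed letters on both strands. GCGCANGC, the core of the NRF1 motif, was in the promoters of 34.7% of these members, of 24.3% of the 6231 genes with at least 10 CPM in this table (CPM, UMIs of a gene for every 1000000 UMIs), and of 11.2% of all 27025 genes. CCGGAAG, the ETS motif that GABPA reads, was in 23.6%, 22.3% and 9.93%. AAGATGGC, a YY1 motif, was in 12.5%, 6.05% and 3.19%. AAGGTCA, the motif of the estrogen-related receptors, was in 11.1%, 3.61% and 5.38%, and TATAAA was in 8.33%, 8.70% and 15.7%. The ETS and TATA motifs were therefore about as frequent in other genes of these cells as in the members. The 5 members with more than 1 listed promoter were left out of the choice of examples. Among the others, 3 held both an NRF1 and an ETS motif within the 150 bases before the start. They are shown as examples from 3 different complexes. Capitals mark those motifs. All 3 lie on the minus strand, and each sequence reads 5′ to 3′ toward the gene.
Cox6a1, a subunit of complex IV, chr5:115348959-115349108: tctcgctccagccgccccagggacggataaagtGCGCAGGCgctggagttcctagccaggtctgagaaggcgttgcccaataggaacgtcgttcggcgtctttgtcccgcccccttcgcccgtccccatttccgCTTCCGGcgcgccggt
Atp5h, a subunit of complex V, chr11:115419920-115420069: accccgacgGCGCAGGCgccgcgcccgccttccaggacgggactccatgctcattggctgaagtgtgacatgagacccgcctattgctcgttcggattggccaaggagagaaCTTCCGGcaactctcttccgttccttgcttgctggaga
Sdhd, a membrane anchor of complex II, chr9:50603850-50603999: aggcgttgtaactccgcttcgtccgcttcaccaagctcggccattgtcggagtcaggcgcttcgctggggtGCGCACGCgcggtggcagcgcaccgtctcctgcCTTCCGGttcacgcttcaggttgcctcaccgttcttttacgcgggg

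Some mitochondrial genes share bases, which bears on how their UMIs can be read. The last 43 bases of mt-Atp8 are also the first 43 of mt-Atp6, at chrM:7927-7969 on the plus strand. In the shared run the capitals mark the start codon of mt-Atp6.
mt-Atp8 and mt-Atp6: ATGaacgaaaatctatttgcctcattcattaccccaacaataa
mt-Nd4l and mt-Nd4 share 7 bases at chrM:10167-10173. Both pairs are carried on joint transcripts with a single 3′ end, so the 83.9 CPM of mt-Atp8 over all cells against 3434 of mt-Atp6, and the 167 of mt-Nd4l against 1173 of mt-Nd4, do not separate the genes. mt-Nd6, the subunit read from the other strand, reached 17.8 CPM, the fewest of the 13.

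The libraries held 2919 to 9345 cells and 47273569 to 123367661 UMIs, with a median of 9923 to 14000 UMIs per cell. Over all cells the nuclear members took 1.52% of UMIs (1.46% to 1.59% by library) and the mt- members 1.92% (1.62% to 2.36%, highest in library 3). The authors removed cells above 10% mitochondrial UMIs, so higher mt- shares were not analysed here; 80 of the cells kept lay at 9% or more. A total of 138 barcode sequences occurred in more than 1 library. Cells were put into lineages and then into classes by markers. A lineage needed at least 3 of its markers and a lead of 2 over every other lineage, which placed 26882 cells. Of the others, 1993 had under 3 markers and 4078 had a lead under 2. Not every cell of a lineage entered a class: 25113 cells did, and 7840 were left in no class. Cycling cells had a class of their own only among neutrophils, monocytes and macrophages, and the B lineage. No member was used as a marker. Ptprc, the gene for CD45 on which the cells were sorted, had a UMI in 95.8% of all cells and in 10.7% of the 122 cells that passed the fibroblast gate. Counting intervals are 95% intervals and cover counting error only.

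The mt- share was lowest in the 4 neutrophil classes and the nuclear share in intermediate and late neutrophils, and the 2 shares ordered the other classes differently. Nuclear members took 2.49% of the UMIs of granulocyte precursors (895 cells; libraries 2.24% to 2.64%), 2.23% in cycling monocytes and macrophages (1.88% to 2.40%), 2.15% in cycling B lineage cells (1.956% to 2.23%) and 1.86% in classical monocytes (3223 cells; 1.64% to 2.13%). Neighbours in this order overlapped between libraries. Granulocyte precursors were not split by cycling, and their cells detected a median of 6 of the 7 cycling markers. Dendritic cells followed at 1.73%, the 84 inflammatory macrophages at 1.66%, NK cells at 1.56%, resident macrophages at 1.496% (1306 cells; 1.39% to 1.81%), T cells at 1.44%, cycling neutrophils at 1.27% (1.17% to 1.33%) and non-cycling B lineage cells at 1.25% (4841 cells; 1.13% to 1.34%). Of these, every pair of neighbours with more than 1 library overlapped. Mast cells (1.08%; 0.808% to 1.39%), fibroblasts (1.04%; 0.985% to 1.12%) and early neutrophils (0.958%; 0.895% to 0.995%) overlapped, and the libraries of mast cells reached down into those of intermediate neutrophils. Late neutrophils, at 0.678%, lay under every library of every other class. The mt- members had another order. Non-cycling B lineage cells led with 3.09% (2.85% to 3.31%), followed by granulocyte precursors with 2.84% (2.31% to 3.13%), cycling B lineage cells with 2.81% (2.53% to 2.97%), the 84 inflammatory macrophages with 2.78% (2.99% in the only library with 20 cells), T cells with 2.64% and resident macrophages with 2.54% (2.36% to 2.88%). Neutrophil classes again were at the bottom, between 0.672% and 1.06%.

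The mt- UMIs per nuclear UMI therefore differed between classes. The ratio was 2.47 in non-cycling B lineage cells (2.13 to 2.82 by library), 1.70 in resident macrophages (1.598 to 1.98), 1.13 in classical monocytes (0.919 to 1.43) and 0.746 in early neutrophils. The library ranges of non-cycling B lineage cells, resident macrophages and classical monocytes did not overlap. Across the 16 classes, which share libraries, the nuclear and mt- shares had a Pearson's r of 0.653 and a Spearman's rho of 0.599, given as a description.

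**Figure D1:**
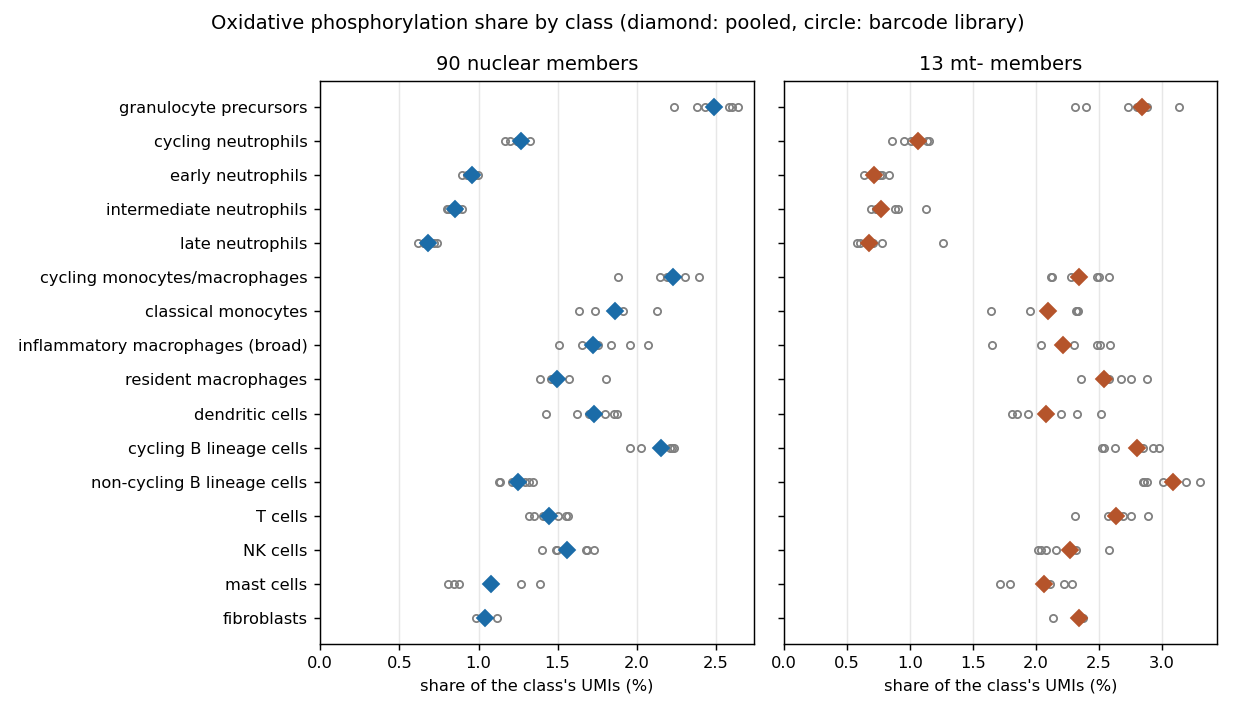
Share of each class's UMIs (%) taken by the 90 nuclear members (left) and the 13 mt- members (right); diamonds are all cells of a class, circles are barcode libraries with at least 20 cells of it. Nuclear shares run from 0.678% in late neutrophils to 2.49% in granulocyte precursors, while the highest mt- share, 3.09%, is in non-cycling B lineage cells. Inflammatory macrophages are drawn with the broader gate described below, at 1.73% and 2.21%.

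The neutrophil classes were listed in an assumed order of maturation, which was not tested. Intermediate neutrophils had no markers of their own: they were the non-cycling neutrophils that met neither the early nor the late gate. Most granulocyte precursors were cycling cells too, so the first 2 classes do not differ by cycling as the later ones do. Classical monocyte gate markers summed to 5081 CPM in precursors, 5898 in classical monocytes and 1425 in early neutrophils. The monocyte and macrophage lineage markers summed to 344 CPM in precursors, against 2453 in classical monocytes. Whether the precursor class also holds monocyte progenitors was not tested. The nuclear share was 2.49% in granulocyte precursors, which express the primary granule genes Elane and Mpo, 1.27% in cycling neutrophils (1.17% to 1.33%), 0.958% in early neutrophils (1319 cells; 0.895% to 0.995%), 0.854% in intermediate neutrophils (3375 cells; 0.798% to 0.893%) and 0.678% in late neutrophils (5167 cells; 0.618% to 0.739%). The library ranges of precursors, cycling and early neutrophils did not overlap, nor did those of early, intermediate and late neutrophils. The mt- share was 2.84%, 1.06%, 0.715%, 0.771% and 0.672% in the same classes. Its library ranges in cycling and early neutrophils did not overlap, and those in early, intermediate and late neutrophils did. Intermediate neutrophils were above early ones in 5 of 6 libraries and above late ones in 5 of 6, while the per-cell medians were 0.586%, 0.457% and 0.224%. Much of the neutrophil RNA is granule and alarmin message: S100a8 and S100a9 alone took 4.09% of UMIs in precursors, 33.5% in early and 19.7% in late neutrophils. The denominator was then changed to leave out the mt- genes and the 20 most counted other genes. The nuclear share was 2.85% in precursors, 2.22% in cycling, 1.92% in early, 1.497% in intermediate and 0.990% in late neutrophils. This is the same order with a smaller first step and a larger last step. The ratios given below for a changed denominator left out the 20 most counted of all genes, which include mt- genes.

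**Figure D2:**
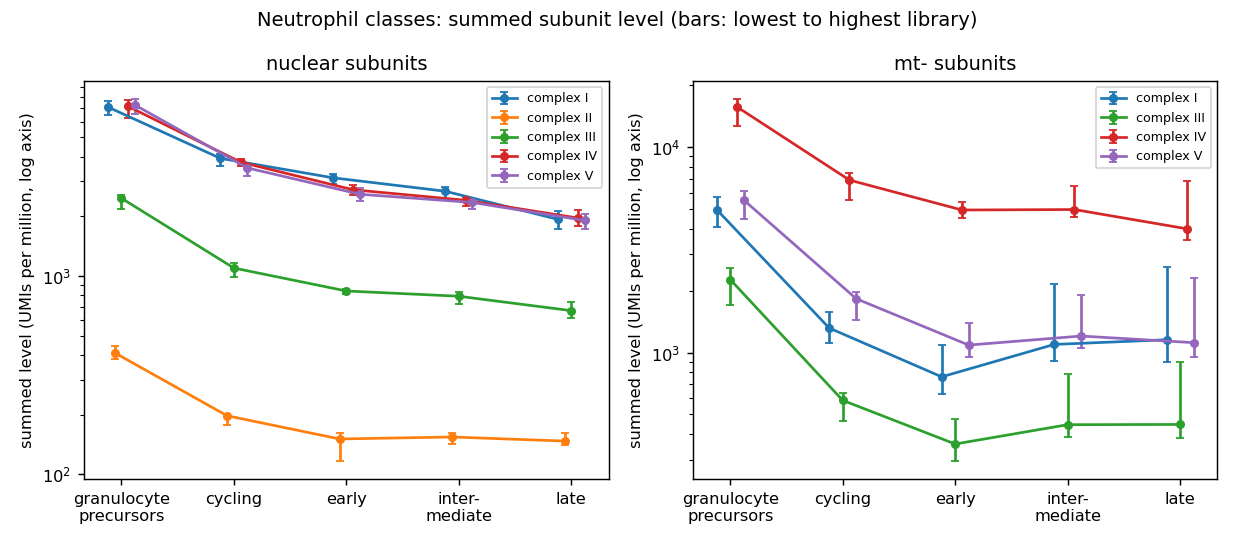
Summed level of the subunits of each complex in the neutrophil classes (CPM, log axis), nuclear on the left and mt- on the right; points are all cells, bars reach from the lowest to the highest library. Nuclear subunits of complex I go from 3126 in early to 1930 in late neutrophils, whereas those of complex II stay near 150.

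Late neutrophils, with Cxcr2, Il1b and Csf3r among their gate markers, were then set against early neutrophils, which carry the secondary granule genes Ngp, Camp and Ltf. The nuclear share in late cells was 0.708 times that in early cells (counting interval 0.703 to 0.712), and it was lower in all 6 libraries (0.665 to 0.802). A gene was called higher or lower when the pooled levels differed by at least 1.5-fold and the direction held in every library with 20 cells of both classes, among genes whose levels averaged at least 10 CPM. Of the 77 nuclear members that passed this filter, 29 fell and 0 rose, that is 37.7% against 14.8% of all genes called lower and 31.1% called higher. Their median ratio was 0.678, where that of all genes was 1.09. Leaving out each library in turn gave 30 to 36. The count depended on the gate and on the denominator: 13 were lower when a lead of 1 marker was enough for a lineage, and 60 when the mt- genes and the 20 most counted genes were left out of the denominator. That change of denominator scaled the ratios of all genes alike: the nuclear ratio became 0.516 and the mt- ratio 0.686. The share of all genes called lower was not counted in any of these alternatives.

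The fall was uneven between complexes. Among nuclear subunits of complex I, 18 of 36 fell, with a median ratio of 0.603, against 2 of 8 in complex III, 5 of 11 measured in complex IV and 4 of 15 in complex V. Of all genes, 14.8% were called lower. In complex II 0 of 4 passed the rule, too few genes to set against that share, and the median ratio was 1.00. The summed level of complex I went from 3126 to 1930 CPM (ratio 0.617, libraries 0.575 to 0.684), while that of complex II was 151 and 147 (0.976, libraries 0.875 to 1.39, above 1 in 3 of 6). The library ranges of these 2 ratios did not overlap. Both are ratios of levels per all UMIs. With the mt- genes and the 20 most counted genes left out of the denominator, both pooled ratios would be lower by the same factor.

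Ndufv3, an accessory subunit of the NADH-binding arm, had the largest fall among the members that passed the filter. Its level was 158 CPM in early neutrophils (lowest library 121, median 149, highest 175) and 48.5 in late neutrophils (39.4, 41.8 and 58.7), a ratio of 0.31. All early libraries lay above all late ones. Ndufa11, a membrane-arm subunit, went from 66.4 (54.3 to 76.6) to 21.0 (16.2 to 31.9), and Uqcrb, a subunit of complex III, from 131 (126 to 154) to 44.7 (32.4 to 72.8). Ndufc1 and Atp5o, the stalk subunit of ATP synthase, had ratios of 0.37 and 0.41. For each of these the libraries of the 2 classes did not overlap.

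As levels per all UMIs, several members were not lower in late neutrophils. The denominator without the mt- genes and the 20 most counted genes scaled the ratios of all genes alike. It would put every pooled ratio of this paragraph below 1. Atp5l, a subunit of the membrane part of ATP synthase, was at 346 CPM in early (326 to 384) and 433 in late neutrophils (405 to 468), higher in 6 of 6 libraries at a ratio of 1.25, below the 1.5-fold rule. Cox7a2l was at 102 and 117, again higher in 6 of 6 libraries. Of the complex II genes, the flavoprotein Sdha was at 34.4 and 36.1, the iron-sulfur subunit Sdhb at 52.7 and 50.5, and the anchor Sdhd at 40.3 and 47.9. The other anchor, Sdhc, was at 23.2 and 12.6, lower in 5 of 6 libraries.

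The mt- members moved differently from the nuclear ones. Their share in late neutrophils was 0.940 times that in early ones, but this sign depended on the library: the ratio ran from 0.777 to 1.70 and was above 1 in 2 of 6 libraries, it was 1.02 without library 6 and 1.29 with a lineage lead of 1 marker. Library 3, with 29 early and 190 late cells, had 0.741% and 1.26%. The 12 mt- members that passed the filter had a median ratio of 1.22, with 2 that rose and 0 that fell. That median would lie below 1 with the mt- genes and the 20 most counted genes left out of the denominator. The 16.7% that rose was below the 31.1% of all genes. mt-Nd2, a core subunit of the proton-pumping arm of complex I, was at 99.1 CPM in early (78.6 to 168) and 236 in late neutrophils (176 to 582), a ratio of 2.38. mt-Nd1 was at 156 and 258, higher in 6 of 6 libraries. mt-Co1, the catalytic subunit of complex IV, was at 2382 (2129 to 2546) and 1801 (1628 to 2793), lower in 5 of 6 libraries.

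The cell-to-cell spread and the markers of another cell type were set beside the mt- values. The median late neutrophil had 0.224% mt- UMIs (quartiles 0.121% and 0.403%), well under the pooled 0.672%, whereas the median early neutrophil had 0.586%. The pooled value of late neutrophils was therefore above that of 3 in 4 of their cells. The 6 monocyte and macrophage gate markers summed to 35.3 CPM in early and 248 in late neutrophils (188 to 509 by library, highest in library 3, 0 of 6 markers at 0), against 2453 in classical monocytes. Explicit zeros, entries kept in the deposited matrix with a count of 0, made up 5.74% of the mt- entries of early and 14.2% of those of late neutrophils, and under 1% in granulocyte precursors and in all classes outside the neutrophils. The part of these in the result was not tested. In cells of 5000 to 20000 UMIs the nuclear ratio was 0.631 and the mt- ratio 0.989.

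Within the mitochondrial genome the balance of complexes also differed by class. For every 100 UMIs of the 3 mt-Co genes, the 7 mt-Nd genes had 15.4 in early neutrophils (14.0 to 20.2), 19.1 in cycling, 22.1 in intermediate and 28.8 in late neutrophils (25.5 to 38.2). Granulocyte precursors had 31.6 (29.2 to 37.8), classical monocytes 32.9 (27.9 to 41.1) and non-cycling B lineage cells 33.9 (31.2 to 40.7), which overlapped. T cells had 42.0 (38.9 to 45.5), NK cells 44.2, resident macrophages 52.9 (49.7 to 56.1) and fibroblasts 54.7. Early neutrophils lay under every library of the classes outside the neutrophils, and resident macrophages above every library of the monocytes, B lineage and T cells. The high balance was not particular to resident macrophages. NK cells (38.1 to 52.8) and fibroblasts (51.1 to 54.6) overlapped with them. The 84 inflammatory macrophages were at 47.3, and at 51.2 in their only library with 20 cells, which is inside the resident range. The ratio of mt-Nd2 to mt-Co1 alone was 4.16 per 100 in early neutrophils and 33.3 in resident macrophages. This measure was chosen after the levels of the mt- genes had been seen.

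**Figure D3:**
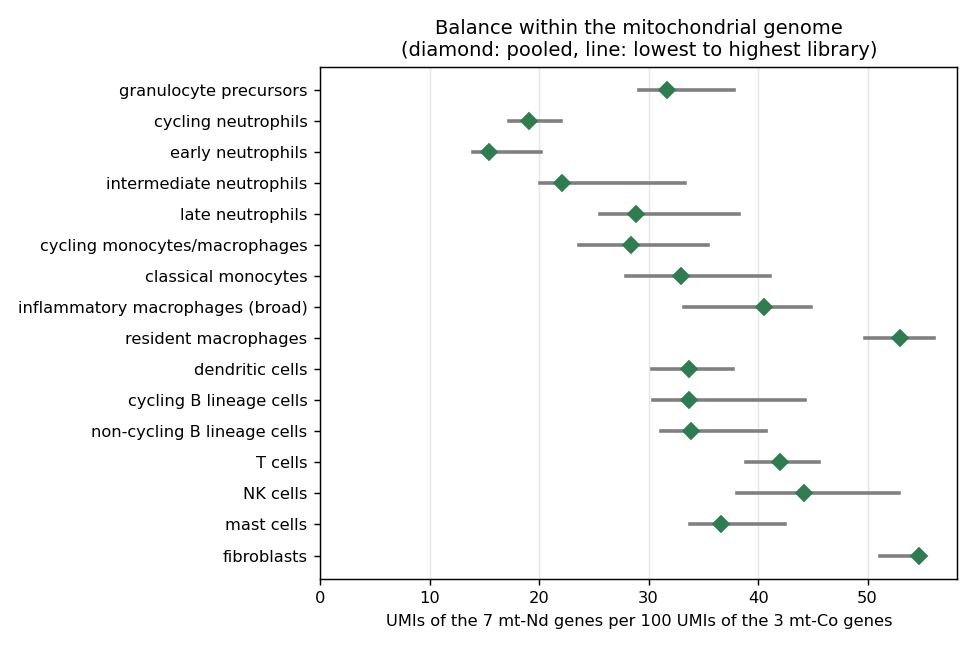
UMIs of the 7 mt-Nd genes for every 100 UMIs of the 3 mt-Co genes in each class; diamonds are all cells, lines reach from the lowest to the highest library. Early neutrophils are lowest at 15.4, and resident macrophages stand at 52.9 against 32.9 in classical monocytes. Inflammatory macrophages are drawn with the broader gate described below, at 40.6.

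In the B lineage the nuclear members were higher in cycling cells and the mt- members were not. Cells with at least 3 of 7 cycling markers (857 cells) had 2.15% nuclear UMIs, 1.72 times the 1.25% of non-cycling cells (counting interval 1.71 to 1.73), and the ratio was above 1 in 6 of 6 libraries (1.61 to 1.84). The mt- share was 2.81% and 3.09%, a ratio of 0.909 that was below 1 in 6 of 6 libraries (0.877 to 0.987). Of the 84 nuclear members that passed the filter 60 rose and 2 fell, 71.4% and 2.38% against 20.7% of all genes called higher and 20.6% called lower, and their median ratio was 1.79 beside 0.962 for all genes. Of the 13 mt- members, 0 rose and 0 fell by the 1.5-fold rule, and the median ratio was 0.928. Cycling cells had more UMIs (median 14460 against 5417); in cells of 5000 to 20000 UMIs the nuclear ratio was 1.59 and the mt- ratio 0.960.

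The rise covered every complex. It took in 26 of 36 nuclear subunits of complex I, 3 of 4 of complex II and 6 of 8 of complex III. In complex IV 9 of 12 measured rose and in complex V 13 of 15, together with 3 of 6 measured assembly factors. Of all genes, 20.7% were called higher. Summed levels rose by a ratio of 1.70 for complex I, 1.48 for complex II, 1.51 for complex III, 1.85 for complex IV and 1.82 for complex V, each above 1 in 6 of 6 libraries. The mt- genes of complexes I, III, IV and V stood at ratios of 0.910, 0.873, 0.917 and 0.901.

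Ndufab1, the mitochondrial acyl carrier protein that is also a complex I subunit, led the members that passed the filter with 63.2 CPM in non-cycling (50.1, median 62.0, 79.8) and 171 in cycling cells (160, 168 and 198), a ratio of 2.71. The libraries did not overlap. Ndufa4, now counted with complex IV, went from 222 (189 to 289) to 576 (533 to 594), and Atp5j, a stalk subunit of ATP synthase, from 179 (161 to 213) to 449 (409 to 494). Uqcr11 of complex III and Ndufc2 of complex I had ratios of 2.48 and 2.40. In all of these every cycling library lay above every non-cycling one.

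A few nuclear members stood outside the common rise. Sdha was at 86.9 and 97.1 CPM, Uqcrh, the hinge protein of complex III, at 506 and 518, and Cox7a2l at 358 in non-cycling and 312 in cycling cells. The 2 that fell were Cox6a2 (29.7 to 6.76) and Atp5sl (34.8 to 17.5). mt-Co1 was at 6320 in non-cycling (5580 to 7011) and 5441 in cycling cells (4722 to 5941), lower in 6 of 6 libraries.

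**Figure D4:**
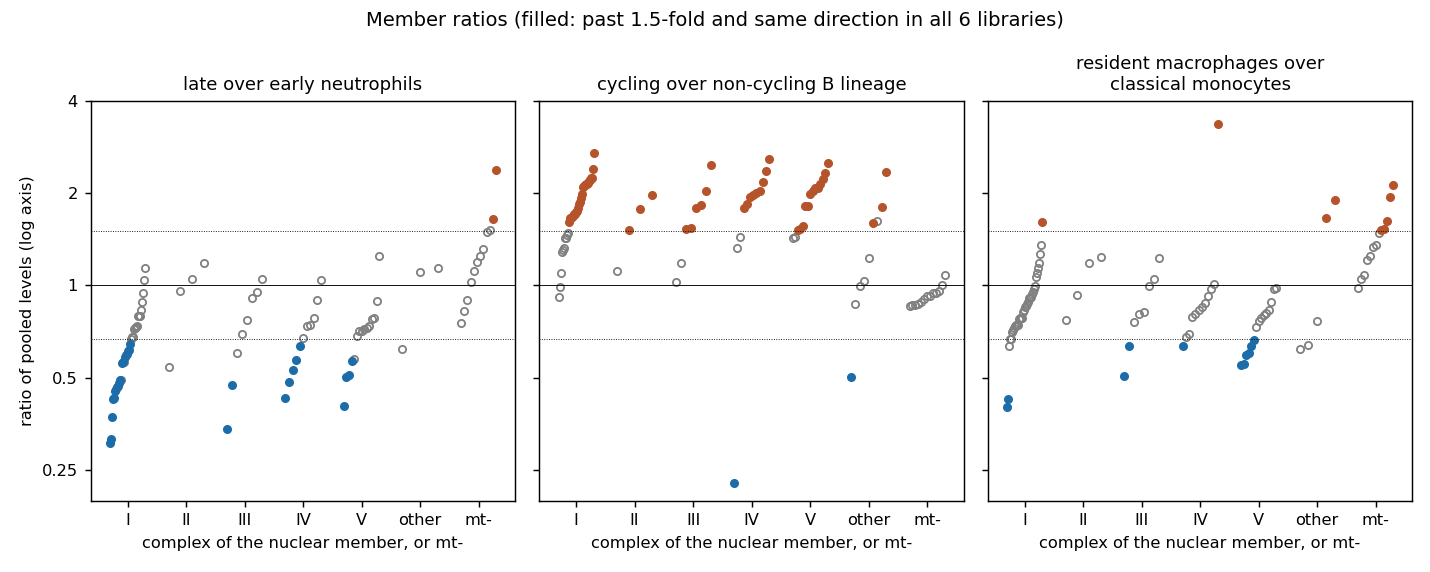
Ratio of pooled levels (log axis) of each member that passed the filter, by complex of the nuclear member (other: assembly factors, Cox7a2l, Atp5s and Atp5sl) or as mt-; filled points differ by at least 1.5-fold with the direction held in all 6 libraries. In the B lineage 60 of 84 nuclear members are higher in cycling cells while the 13 mt- members stay between 0.86 and 1.08.

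Between resident macrophages and classical monocytes the 2 genomes pointed in opposite directions. Resident macrophages, gated on Lyve1, Cd163, Folr2, Timd4, Cbr2 and Vsig4, had 1.496% nuclear UMIs against 1.86% in classical monocytes, gated on Ccr2, Ly6c2 and others. The ratio was 0.805 (counting interval 0.801 to 0.808), below 1 in 6 of 6 libraries (0.740 to 0.970). The mt- share was 2.54% against 2.09%, a ratio of 1.22 and above 1 in 6 of 6 libraries (1.15 to 1.43). This pair was added once the planned inflammatory macrophage gate was seen to hold few cells. Of 80 nuclear members that passed the filter 4 rose and 11 fell, 5.00% and 13.8% against 25.0% of all genes called higher and 16.0% called lower, so the share that fell was near the background and the share that rose below it. The median ratio of these members was 0.816, and of all genes 1.10.

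The summed ratio of the nuclear subunits of complex V was 0.727 (0.663 to 0.917). Complex V had the largest part of the fall, 6 of 15 nuclear subunits (40.0%, beside 16.0% of all genes). Among them were Atp5c1 and Atp5d, subunits of the rotor stalk. Atp5c1 was at 316 CPM in monocytes (255, median 325, 378) and 175 in resident macrophages (171, 174 and 181). Every monocyte library lay above every macrophage library. Ndufs4, a complex I subunit whose loss is known to cause Leigh syndrome, had the largest fall among the members that passed the filter, from 139 (119 to 156) to 55.7 (43.3 to 58.8). Ndufa3 went from 249 to 106 and Uqcrfs1, the Rieske iron-sulfur protein of complex III, from 137 to 69.2.

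By the rule 5 of the 13 mt- members rose in resident macrophages (38.5% against 25.0% of all genes) and 0 fell, with a median ratio of 1.36. The 7 mt-Nd genes summed to 3882 CPM in monocytes and 6512 in resident macrophages, and they were as high, at 6548, in the 84 inflammatory macrophages. mt-Nd2 was at 803 in monocytes (588, median 858, 1068) and 1705 in resident macrophages (1472, 1813 and 1963), and mt-Nd1 at 893 (698 to 1190) and 1732 (1564 to 2079), without overlap. The mt-Co genes were nearly level: mt-Co1 was at 4721 and 5117, and mt-Co3 at 3717 and 3660. The 4 nuclear members that rose were Cox7a1, Ndufa5 and the assembly factors Ndufaf2 and Ndufaf4. Complex II was again level, with a summed ratio of 0.978, above 1 in 3 of 6 libraries.

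Inflammatory macrophages, gated on Arg1, Spp1, Inhba, Cxcl9, Gpnmb and Hmox1, numbered 84, and only 1 library held 20 of them. They had 1.66% nuclear and 2.78% mt- UMIs. Against classical monocytes 1 of 80 nuclear members was called higher and 6 lower, where 13.7% and 12.2% of all genes were. The 6 became 17 in cells of 5000 to 20000 UMIs and 10 without library 4. The share of all genes was not counted in these settings. Of the mt- members 7 of 13 were called higher (53.8%) and 0 lower, with a median ratio of 1.65. Resident against these inflammatory macrophages gave 1 higher and 5 lower of 80, where 21.6% and 12.6% of all genes were. A broader gate, set after these numbers were seen, asked for 3 of the 6 inflammatory markers and fewer than 2 resident ones and took 706 cells from all 6 libraries. It did not ask for a lead over the classical monocyte markers. Its cells detected a median of 4 of those 6 markers, against 1 in the strict gate, so they were partly monocyte-like. Cells that met the broad gate were taken out of the classical monocytes they were compared with. The broad gate had 1.73% nuclear (1.51% to 2.07%) and 2.21% mt- UMIs (1.65% to 2.59%). Against classical monocytes 0 of 78 nuclear members rose and 4 fell (5.13%), where 5.97% and 5.40% of all genes did, and 0 of 13 mt- members were called. Resident macrophages against the broad gate gave 1 higher and 6 lower of 80, against 20.8% and 12.5%. The mt- share of resident macrophages was 0.914 times that of the strict gate and 1.15 times that of the broad gate, so its direction depends on the gate.

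Several minor isoforms of complex IV were high in few classes. Cox6a2, known as the heart and skeletal muscle form of subunit VIa (chr7:128205435-128206387, minus strand), was at 22.1 CPM over all cells, but at 134 in dendritic cells (45.0 to 311 by library). A gate for cells outside the neutrophil classes was added after this was seen. It asked for Siglech, a marker of plasmacytoid dendritic cells, with at least 2 of Ccr9, Klk1, Spib and Tcf4. It held 622 cells, of which 94 were in the dendritic class and 483 in no class. There Cox6a2 reached 984 CPM (814 to 1145, with 39 to 199 cells in a library), and 86.5% of cells had a UMI of it. In the dendritic cells outside that gate it was at 1.33, with a UMI in 1.23% of cells at a higher median depth (17580 against 12050 UMIs), and in all other cells at 4.38. The common form Cox6a1 was at 197 in the gate and 248 in the other dendritic cells, so that in the Siglech gate, and in none of the 16 classes, the muscle form outnumbered it. The gate had 1.66% nuclear UMIs (1.52% to 1.78%) and 2.94% mt- UMIs (2.43% to 3.16%).

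Without the Siglech gate Cox6a2 remained at 24.4 CPM in non-cycling (17.5 to 28.3) and 6.36 in cycling B lineage cells (2.21 to 8.56). Siglech itself was at 0.831 and 0 CPM in those B lineage cells. The gate, which required Siglech, had taken 14 non-cycling and 2 cycling B lineage cells, so these low levels were in part set by it. The skeletal muscle markers Ckm, Acta1, Tnnt3, Myh4 and Mylpf summed to 5.32 CPM over all cells. Cox6b2, known as the testis form of subunit VIb, was at 44.7 in granulocyte precursors (31.6 to 68.3) and 43.3 in mast cells, then at 15.1 in cycling, 5.74 in early and 1.23 in late neutrophils. Its common partner Cox6b1 was at 498 in precursors and 195 in late neutrophils.

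Cox7a1, the muscle form of subunit VIIa, was highest in resident macrophages, at 17.1 CPM (12.0 to 27.0) against 5.08 in monocytes (3.04 to 8.05), with 302 for the common Cox7a2. Ndufa4l2, a paralogue of Ndufa4 known as a target of hypoxia signalling, was at 94.5 in the 122 fibroblasts, above 0 in 2 libraries with enough cells (31.6 and 110), and under 0.5 in every other class. Cox4i2 was at 6.79 in fibroblasts and at most 2.62 elsewhere, while Cox4i1 ranged from 338 in late neutrophils to 905 in classical monocytes. Cox8b, the muscle partner of Cox8a, was at 0.0349 over all cells. The 3 genes for the same c-ring protein of ATP synthase, Atp5g1, Atp5g2 and Atp5g3, were at 124, 301 and 121 in non-cycling and 257, 645 and 281 in cycling B lineage cells, so that Atp5g2 led in both.

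**Figure D5:**
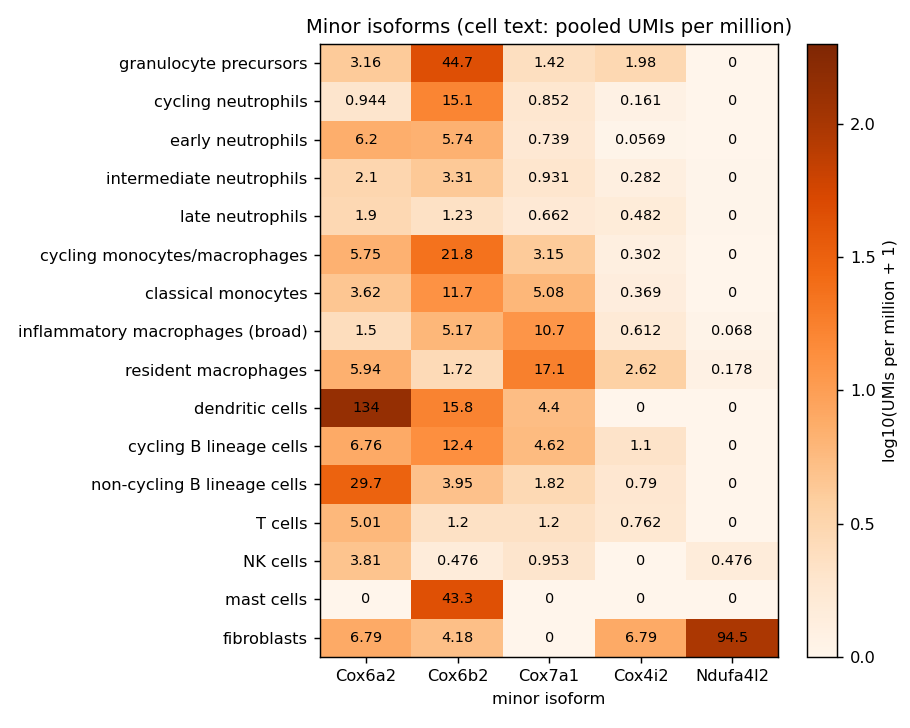
Pooled level (CPM, printed in each field; colour is log10 of the level plus 1) of 5 minor isoforms in each class. Cox6a2 stands at 134 in dendritic cells, Cox6b2 at 44.7 in granulocyte precursors and 43.3 in mast cells, Cox7a1 at 17.1 in resident macrophages and Ndufa4l2 at 94.5 in fibroblasts. Inflammatory macrophages are drawn with the broader gate.

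Genes around the respiratory chain were counted from fixed pathway lists. In late against early neutrophils, where 14.8% of all genes fell and 31.1% rose, 4 of 12 measured citric acid cycle enzymes fell (33.3%) and 0 rose. Among those that fell were Mdh2 (158 to 97.5 CPM) and Pdha1 (26.1 to 15.2). Of further subunits, carriers and assembly genes 3 of 11 fell (27.3%) and 1 rose, and cytochrome c (Cycs) went from 84.0 to 42.8. In glycolysis 3 of 16 rose and 3 fell (18.8% each), fewer risers than among all genes: the glucose transporters Slc2a1 (24.4 to 155) and Slc2a3 (197 to 764) rose, and lactate dehydrogenase A (Ldha) fell from 598 to 242.

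In cycling B lineage cells, where 20.7% of all genes rose and 20.6% fell, 4 of 17 citric acid cycle enzymes rose (23.5%, near that background) and 0 fell, with Fh1 and Idh3a at ratios of 2.33 and 2.36. Of 15 glycolytic genes 6 rose (40.0%) and 2 fell, led by Gapdh (255 to 742). Cycs rose from 87.7 to 200. Of the regulators of mitochondrial biogenesis 0 of 11 rose and 3 fell (27.3%): the coactivator Ppargc1a (73.5 to 27.6), the receptor Esrra (29.8 to 14.1) and the polymerase subunit Polg2. In resident macrophages against monocytes, where 25.0% of all genes rose and 16.0% fell, 0 of 17 citric acid cycle enzymes were called. Of 16 glycolytic genes 10 fell (62.5%) and 1 rose, with Slc2a1 at 116 in monocytes and 26.8 in resident macrophages. Of 10 biogenesis regulators 3 rose (30.0%, near the background): the coactivator Ppargc1b from 6.22 to 33.2, Pprc1 and Gabpa.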

How the data were processed

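The table analysed is the UMI count matrix (genes by cells, 1 matrix for all libraries) that the authors deposited, without library-size normalisation. Per their methods it came from Chromium 3′ libraries (chemistry 3.1) read with Cell Ranger 7.0.0 on mm10. It was corrected for free RNA with SoupX 1.6.2 and cleared of doublets with DoubletFinder 2.0.3. Cells were filtered in Seurat 4.3.0 (200 to 7000 genes, at most 10% mitochondrial UMIs). Explicit zeros made up 1.53% of nuclear and 2.57% of mt- entries. No further cell was removed and no doublet caller was rerun.

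Counts were summed per marker-gated class and library in Python 3.11.15 (NumPy 2.4.6, pandas 2.3.3, SciPy 1.17.1) and divided by all UMIs of the class, as percent or as CPM. UMIs count transcripts, so no length correction was made. Sub-gates needed 2 markers and a lead of 2. Classes under 50 cells got no value, and libraries under 20 cells of a class no library value. Intervals are 95% intervals (Wilson for shares, log-normal for ratios) and cover counting error only. The plan named all mt- genes, the extremes of each complex, the 5 largest called ratios in each direction, paralogue pairs and Sdha to Sdhd. Not all of these appear in the text. The members, lists and gates were chosen with earlier results of these data known. For the neutrophil and B lineage comparisons the calling rule was tried on simulated counts. These varied by counting error only, so they could not test how the rule handles differences between libraries. Alternatives covered gate strictness and lead, depth of the cells, the denominator, the weight of libraries, each library left out, the fold and the filter. Pseudogene copies of mt- genes and near-identical Atp5g genes were not resolved.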

Additional observations from a re-analysis of the deposited data

How the results depend on the processing

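With a lineage lead of 1 marker, late over early neutrophils gave a nuclear ratio of 0.868, an mt- ratio of 1.29, which turns its direction, and 13 nuclear members lower. With the same setting the mt- ratio was 1.31 for inflammatory macrophages over classical monocytes, 0.931 for resident over inflammatory macrophages and 0.916 for cycling over non-cycling B lineage cells. In cells of 5000 to 20000 UMIs the nuclear and mt- ratios were 0.631 and 0.989 for late over early neutrophils, 0.800 and 1.42 for inflammatory macrophages over monocytes (17 nuclear members lower), 0.989 and 0.849 for resident over inflammatory macrophages, 1.59 and 0.960 for the B lineage and 0.791 and 1.21 for resident macrophages over monocytes. With the denominator free of mt- genes and the 20 most counted genes they were 0.516 and 0.686 for neutrophils (60 members lower), 0.909 and 1.35 for inflammatory macrophages over monocytes, 0.887 and 0.900 for resident over inflammatory macrophages, and 1.68 and 0.888 for the B lineage. As the median of libraries they were 0.692 and 0.920 for neutrophils, 0.861 and 1.28 for inflammatory macrophages over monocytes, 0.889 (mt-) for the B lineage, 0.820 and 1.24 for resident macrophages over monocytes, and the nuclear ratio was 0.989 for resident over inflammatory macrophages. With 4 lineage markers the mt- ratio of neutrophils was 0.970 and the nuclear ratios of the 3 macrophage comparisons were 0.875, 0.926 and 0.810. At 2-fold the nuclear members called numbered 15 lower in late neutrophils, 26 higher in cycling B lineage cells, 2 lower in resident macrophages against monocytes and 1 in each comparison with inflammatory macrophages. With the broad inflammatory gate, chosen after seeing the data, the nuclear and mt- ratios were 0.921 and 1.05 against monocytes, and 0.867 and 1.15 for resident macrophages over these cells, the last a change of direction. The cause was not tested.

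Leaving out each library gave nuclear and mt- ratios of 0.689 to 0.719 and 0.906 to 1.02 for neutrophils (1.02 without library 6, a change of direction), 0.863 to 0.948 and 1.30 to 1.36 for inflammatory macrophages over monocytes, 0.836 to 0.935 and 0.897 to 0.942 for resident over inflammatory macrophages, 1.71 to 1.73 and 0.891 to 0.926 for the B lineage, and 0.793 to 0.823 and 1.19 to 1.24 for resident macrophages over monocytes. The members called were 30 to 36, 5 to 10, 4 to 7, 58 to 61 and 10 to 14 in the same order; without library 3 the strict inflammatory gate gave no count. No filter on low values moved no count by more than 1.5 times. The share of all genes called was counted only under the main rule and with the broad inflammatory gate, so the other counts have no background beside them. The classes compared came from the same libraries, so the ratios by library are paired values. No paired analysis was possible between vehicle and PEPITEM because the treatment of the library numbers is not known.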
